A study of Rattus norvegicus with 6 samples.

Results

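The genes described here are 54 genes of the cell division cycle, listed by symbol, measured in beta cells of rat pancreas that had been sorted by flow cytometry (FACS, fluorescence-activated cell sorting). They run from the licensing of DNA replication through DNA synthesis to mitosis and the splitting of the cell. A gene was taken where a probe set, a group of short array probes against 1 transcript, carried its symbol and no other symbol in the platform annotation, and where several did, the probe set with the highest mean over the 6 arrays stood for the gene. By this rule 52 of the 54 genes were measured, among 14217 genes in all. Cdc6 had no such probe set, and Rrm2 lay only on probe sets that carry a further symbol, so neither has a value here. Of the 52 genes, 21 had a mean intensity over 50 in fed beta cells and 31 were dimmer, and the 2 classes are counted apart. Just inside this threshold lay Top2a with a fed mean of 51.6, Rrm1 with 52.1 and Mcm2 with 52.4. Just outside it lay Ect2 with 49.3, Kif20a with 48.1 and Ccne2 with 47.0.

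Beta cells of rats that had gone 24 h without food were compared with beta cells of rats with free access to food. All rats were male Wistar rats of 10 weeks, and the labels name no transgene or drug. In each group 3 isolates were made, with 5 rats pooled for 1 isolate and its RNA put on 1 Affymetrix array, so that the spread within a group is that between pools and not between single rats. The sorted cells are labelled 92 ± 3% insulin-positive, were frozen at once, and their RNA was extracted in a single session for all isolates. The question was whether a short fast changes the transcripts of the beta cell.

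As background, a cell that is to divide first passes through G1, where D-type cyclins with the kinases CDK4 and CDK6 phosphorylate the retinoblastoma protein and so free the E2F transcription factors. E2F factors then switch on the genes of DNA replication, among them the MCM helicase, while genes of mitosis are held down in resting cells by the DREAM complex and come on later through B-MYB and FOXM1. Beta cells of adult rodents divide rarely. In mice, cyclin D2 and CDK4 are needed for the growth of the beta cell mass after birth, and transcripts such as Mki67 and Top2a serve as markers of dividing cells.

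Promoters of 5 genes lower after fasting (1.5-fold or more, unadjusted p under 0.05) are shown here, since they hold the motifs through which these factors are known to act. Each window is the 300 bases around the annotated start in RefSeq, read 5′ to 3′ on the strand of the gene. Capitals mark matches, on either strand, to the E2F motif (TTTCCCGC, TTTCGCGC, TTTGCCGC or TTTGGCGC), to the CHR motif (TTTGAA), a letter run that DREAM and related complexes are known to bind, or to the CCAAT box (CCAAT), bound by NF-Y.

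Mcm6 and Mcm7, subunits of the replicative helicase, hold E2F motifs and CCAAT boxes, and Top2a, Ect2 and Mki67 hold CHR motifs and CCAAT boxes.
Mcm6 (GRCr8, chr13:42404303-42404602, minus strand): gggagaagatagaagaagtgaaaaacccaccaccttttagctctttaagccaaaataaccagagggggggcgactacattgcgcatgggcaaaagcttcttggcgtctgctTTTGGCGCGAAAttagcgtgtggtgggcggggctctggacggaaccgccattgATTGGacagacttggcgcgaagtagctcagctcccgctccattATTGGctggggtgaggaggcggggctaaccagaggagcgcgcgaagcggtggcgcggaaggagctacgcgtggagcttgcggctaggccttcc
Mcm7 (GRCr8, chr12:22163129-22163428, minus strand): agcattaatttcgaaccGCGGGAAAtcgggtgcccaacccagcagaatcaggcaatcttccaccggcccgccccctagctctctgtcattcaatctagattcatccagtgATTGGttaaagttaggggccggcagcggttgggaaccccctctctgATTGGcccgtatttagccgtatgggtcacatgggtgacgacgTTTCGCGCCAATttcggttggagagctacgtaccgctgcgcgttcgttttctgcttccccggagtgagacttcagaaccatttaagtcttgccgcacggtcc
Top2a (GRCr8, chr10:84473044-84473343, minus strand): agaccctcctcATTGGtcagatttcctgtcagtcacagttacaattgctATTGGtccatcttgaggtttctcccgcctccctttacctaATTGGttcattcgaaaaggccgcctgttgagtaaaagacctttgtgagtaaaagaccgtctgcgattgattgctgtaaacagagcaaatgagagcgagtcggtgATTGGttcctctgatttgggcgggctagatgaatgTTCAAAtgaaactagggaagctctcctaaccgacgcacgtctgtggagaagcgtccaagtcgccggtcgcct
Ect2 (GRCr8, chr2:111966577-111966876, minus strand): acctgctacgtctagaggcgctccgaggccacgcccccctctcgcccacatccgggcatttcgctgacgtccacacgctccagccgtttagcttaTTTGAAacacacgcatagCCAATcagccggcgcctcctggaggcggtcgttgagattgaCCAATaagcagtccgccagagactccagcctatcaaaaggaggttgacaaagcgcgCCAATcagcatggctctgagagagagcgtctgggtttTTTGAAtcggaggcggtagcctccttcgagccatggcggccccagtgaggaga
Mki67 (GRCr8, chr1:199952544-199952843, minus strand): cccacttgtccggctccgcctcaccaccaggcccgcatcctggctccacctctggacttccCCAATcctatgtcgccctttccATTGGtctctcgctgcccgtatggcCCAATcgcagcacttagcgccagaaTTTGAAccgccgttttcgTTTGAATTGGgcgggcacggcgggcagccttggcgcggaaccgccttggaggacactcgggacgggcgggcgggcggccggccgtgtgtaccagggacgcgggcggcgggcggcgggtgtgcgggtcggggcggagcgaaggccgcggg

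In Mcm7 an E2F motif and a CCAAT box share letters, and in Mki67 a CHR motif and a CCAAT box do. No other measured gene of the list with a promoter window had such an overlap, and 0.0747% of all 33469 promoter windows did. Windows were found for 40 of the 52 measured genes. Rrm2, Cdkn1c, Ccnd2, Cdc6, Racgap1, Aurkb, Ccne2, Ccna2, Ccnd1, E2f1, Mcm4, Cdk6, Foxm1 and Ube2c had no entry. The E2F motif was in 8 of the 12 windows of genes of licensing and DNA synthesis (66.7%) and in 1 of the 21 windows of later cyclins and mitotic genes (Cdk1), against 2.14% of all windows. The CHR motif was in 2 of those 12 windows and in 14 of those 21 (66.7%), against 18.3% of all windows. CCAAT boxes were in 8 of the 12 and in 17 of the 21 windows (81.0%), against 37.5%. Among the 7 windows of the D cyclins, Cdk4, the CDK inhibitors and Rb1, 1 held an E2F motif (Rb1), 0 a CHR motif and 2 a CCAAT box. A match is a run of letters and not a shown binding site. Of the 11 lower genes with a window, 5 held the E2F motif, 3 the CHR motif and 9 a CCAAT box, and of the 29 other genes 5, 13 and 18 did. The windows of Bub1 and Cdkn2c, both lower after fasting, held none of these motifs.

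**Figure D1:**
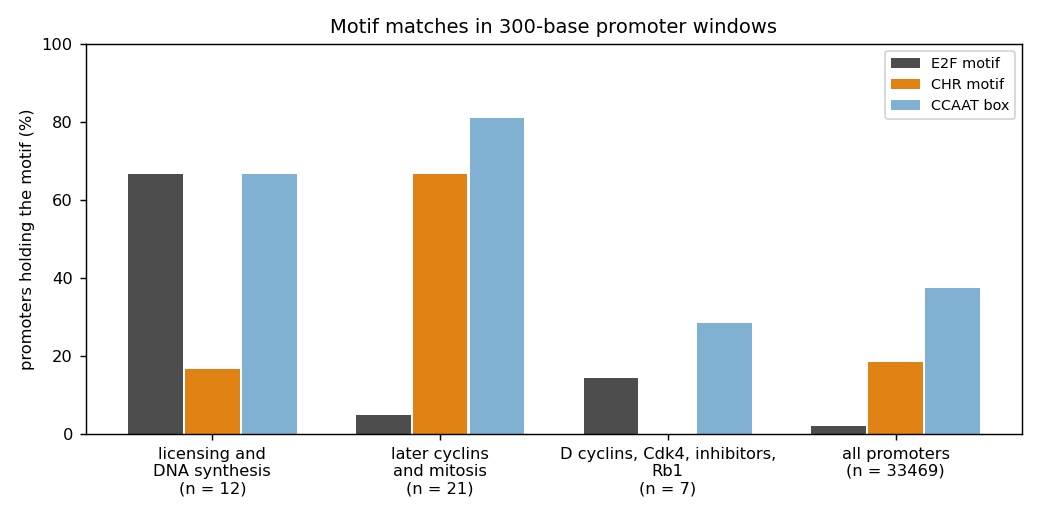
Share of 300-base promoter windows (vertical axis, percent) that hold the E2F motif, the CHR motif or the CCAAT box, for 3 groups of the cell cycle genes and for all 33469 windows. The E2F bar stands at 66.7% for licensing and DNA synthesis genes, the CHR bar at 66.7% for later cyclins and mitotic genes, and over all windows these bars stand at 2.14% and 18.3%.

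Intensities are linear model-based values on which the arrays had been scaled to the array of median brightness. The median over probe sets was 17.1, 17.8 and 21.0 on the fasted arrays, against 21.1, 21.8 and 20.2 on the fed arrays. Changes are log2 ratios of fasted over fed from a limma fit on all 31042 probe sets, in which values under 3.27 were raised to that floor, and the median change over all probe sets was -0.20. With quantile normalization that median was -0.02, and with every array scaled by its 75th percentile it was 0.01. A gene is called lower or higher here at a fold of at least 1.5 with an unadjusted two-sided p under 0.05, and the p adjusted by Benjamini-Hochberg over all 31042 probe sets is printed beside it. With 3 arrays against 3 an exact permutation test cannot go below 0.10. Fasted replicate 1 stood apart, with rank correlations of 0.831 to 0.898 with the other arrays, which reached up to 0.944 among themselves.

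Beta cell markers were present and not called, 7 of 9 measured, with a summed intensity of 22725 to 24166 on the fasted arrays and 23603 to 24768 on the fed arrays. Acinar markers were strong in all isolates (14 of 15 measured, 1 lower, sum 58558 to 66948 fasted and 63035 to 68698 fed). The sum is carried by 12 genes of secreted digestive proteins that read 2476 to 7267, on arrays whose highest reading of any probe set was 7000.0 to 7629. The 1 lower acinar marker was Ptf1a, a transcription factor of acinar cells far below that range, which read 11.9, 10.7 and 16.9 in fasted isolates, against 46.0, 29.4 and 54.9 in fed isolates (log2 change -1.70, adjusted p = 0.190 in limma). Duct markers (7 of 9 measured, 1 higher) were the list whose sums lay apart, at 3428 to 3970 on the fasted arrays and 3062 to 3141 on the fed arrays. Krt19, a keratin of duct cells, was called higher, with 88.9, 80.3 and 87.9 in fasted isolates, against 56.8, 46.4 and 55.6 in fed isolates (log2 change 0.70, adjusted p = 0.192 in limma), and for Krt7 and Krt8, further keratins, every fasted array read above every fed one, with changes of 0.37 and 0.32 that were under 1.5-fold. Krt8 and Epcam carry the duct sum, with fasted means of 1985 and 1195 and fed means of 1594 and 1086. Epcam and Spp1 had changes of 0.14 and 0.19 and Cftr and Muc1 changes of -0.25 and -0.65, none of them called. For Muc1 every fasted array read below every fed one, so the duct list had no single direction. Alpha cell markers (5 of 7 measured, 0 called) summed to 7346 to 8552 on the fasted arrays and 6257 to 11166 on the fed arrays, and the highest sum was on fed replicate 2, where the delta and PP cell sum (10160) and the stellate and fibroblast sum (742, 0 of 11 called) were also the highest of the 6 arrays. Macrophage markers (13 of 13 measured) summed to 191 to 203 fasted and 164 to 225 fed, endothelial markers (10 of 11, Flt1 higher with a log2 change of 0.83) to 318 to 354 fasted and 223 to 403 fed, erythroid markers (3 of 7) to 54.2 to 110 fasted and 62.8 to 106 fed, and lymphocyte markers (9 of 12, Cd3e under the floor on every array) to 52.5 to 98.2 fasted and 78.8 to 85.6 fed. In such bulk preparations fewer dividing cells and less RNA per dividing cell cannot be told apart, and the part of other cell types in the results below was not tested.

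Part of the cell cycle list was lower after fasting and no gene of it was called higher. Of the 52 measured genes 12 were lower (23.1%), where 9.51% of all 14217 genes were, and 0 were higher, where 2.29% of all genes were (0.876% of those with a fed mean over 50 and 3.49% of the dimmer ones). Among the 21 genes with a fed mean over 50, 3 were lower (14.3%: Mcm7, Top2a and Cdkn2c), close to the 12.8% of all genes of that brightness. Among the 31 dimmer genes 9 were lower (29.0%: Mcm3, Mcm5, Mcm6, Gmnn, Ccna2, Bub1, Kif20a, Ect2 and Mki67), where 6.73% of all dimmer genes were. The median log2 change was -0.38 over the brighter genes of the list, against -0.23 over all genes as bright, and -0.76 over the dimmer ones, against -0.14. Because the fed mean sets the classes, a gene can enter the brighter class by a high fed reading alone. With the mean of all 6 arrays as the measure, 2 of 16 brighter genes were lower (12.5%), against 11.2% of all genes as bright by that measure. No gene passed the adjusted test in limma, in which 13 of the 52 had an unadjusted p under 0.05 and the smallest adjusted p was 0.206, of Mcm3. Every fasted array read below every fed array in 15 of the 52 genes (28.8%), where 21.2% of all genes did so, and in 6 of the 21 brighter genes (28.6%), where 32.4% did, and in 9 of the 31 dimmer ones (29.0%), where 11.8% did. None of the 52 genes had every fasted array above every fed one, as 5.76% of all genes did. The count of 12 moved with the isolates used. It was 5 without fed replicate 1, 7 without fasted replicate 2 and 23 without fasted replicate 3, and 8 without fasted replicate 1, 18 without fed replicate 2 and 9 without both of these. In the same order, lower probe sets over the whole array numbered 1448, 1706, 5562, 1690, 1997 and 1637, against 2616 with all isolates. The count for the list was 8 after quantile normalization or scaling to the 75th percentile, which remove the shift of all probe sets, and 2 in a comparison of linear means with unequal variances. Lower probe sets then numbered 1501, 1329 and 1625.

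**Figure D2:**
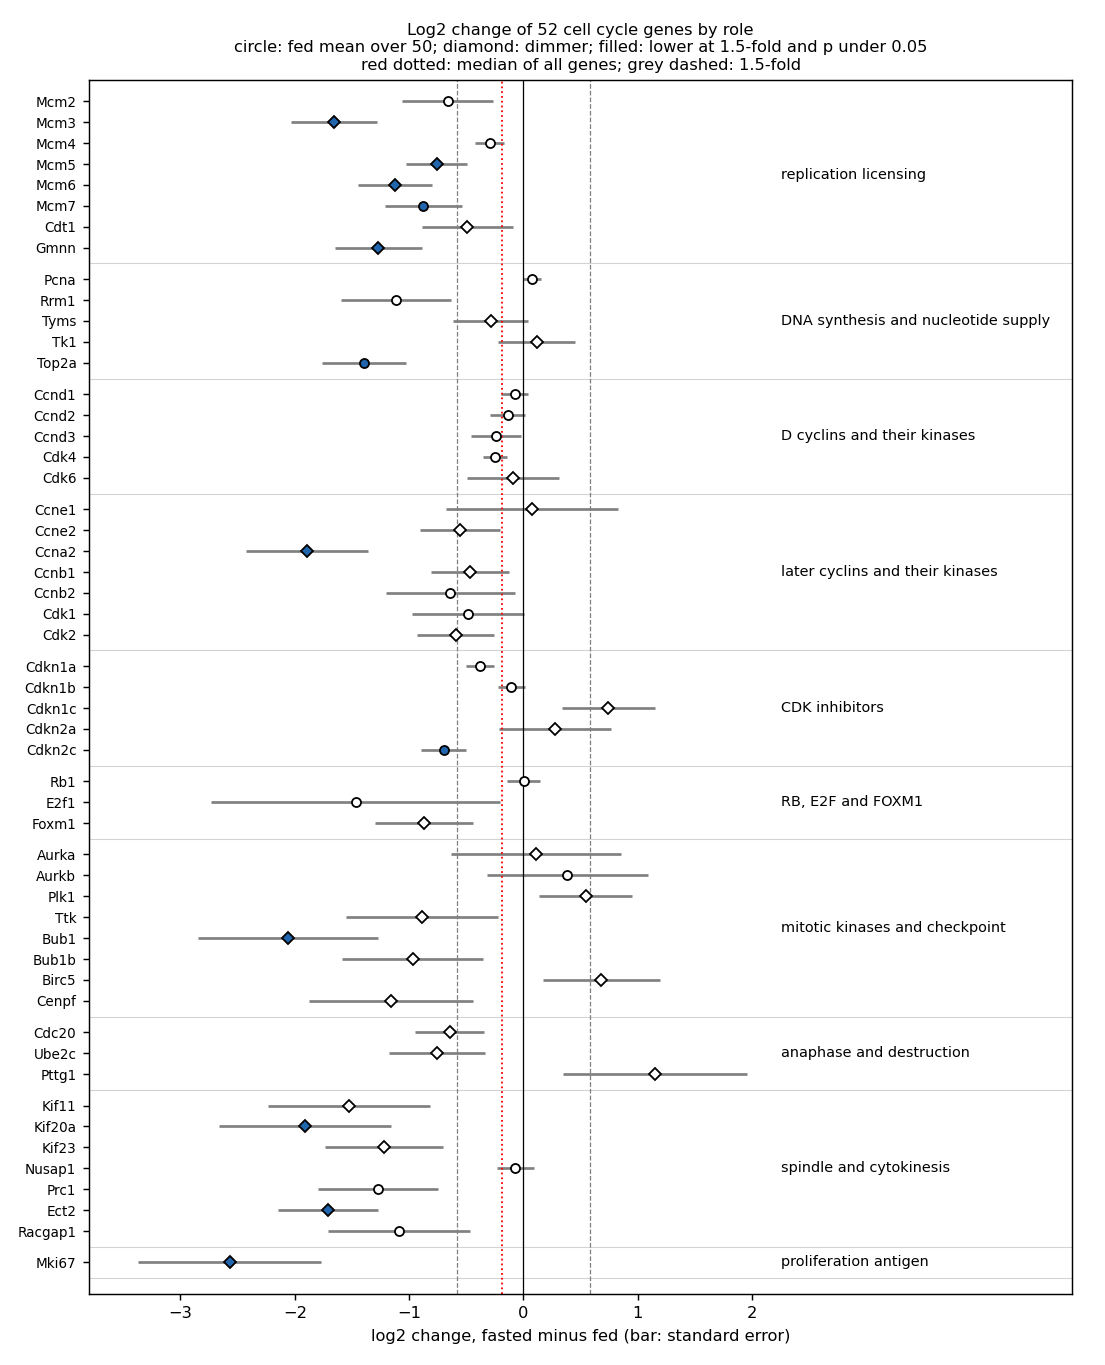
Log2 change of fasted over fed (horizontal axis) with its standard error for each of the 52 genes, in rows grouped by role. Circles are genes with a fed mean over 50 and diamonds dimmer ones, and filled symbols are the 12 that were lower. All licensing genes and all spindle and cytokinesis genes lie left of 0, while the D cyclins and their kinases lie between -0.25 and -0.08.

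Of the replication licensing genes, which load the MCM helicase at origins and control it, 5 of 8 were lower, all 8 changes were negative and their median was -0.82. Over all genes 9.51% were lower, 66.4% had a negative change and the median was -0.19. Mcm7, a subunit of the helicase with a fed mean over 50, read 33.8, 45.1 and 77.9 in fasted beta cells, against 106, 72.2 and 95.4 in fed beta cells. The mean was 52.3 ± 22.9 in fasted and 91.3 ± 17.4 in fed beta cells (SD, n = 3 each), and the difference passed the rule without a gap between the groups (log2 change -0.88, SE 0.34, adjusted p = 0.315 in limma), since fasted replicate 3 lay above fed replicate 2. Its call was lost in 10 of 18 alternatives, among them quantile normalization, scaling to the 75th percentile and leaving out fasted replicate 1, fasted replicate 2, fed replicate 1 or fed replicate 3. Mcm4 and Mcm2, further subunits with a fed mean over 50, were not called. Mcm4 read 116, 132 and 153 in fasted beta cells, against 166, 161 and 161 in fed beta cells, with every fasted array below every fed one but a small shift (log2 change -0.30, SE 0.13, adjusted p = 0.344 in limma). Mcm2 read 20.2, 32.1 and 51.8 in fasted beta cells, against 68.8, 39.8 and 48.6 in fed beta cells and the groups overlapped (log2 change -0.66, SE 0.40, adjusted p = 0.444 in limma).

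Of the 5 dimmer licensing genes 4 were lower. Mcm6, whose promoter is printed above, read 12.9, 18.1 and 19.3 in fasted beta cells, against 49.2, 28.7 and 33.0 in fed beta cells, with a gap between the groups (log2 change -1.12, SE 0.33, adjusted p = 0.263 in limma). Mcm5, another subunit, read 20.5, 17.2 and 21.0 in fasted beta cells, against 39.1, 26.4 and 34.8 in fed beta cells, again without overlap (log2 change -0.76, SE 0.27, adjusted p = 0.292 in limma). The call of Mcm6 was lost in 2 of 18 alternatives, linear means and leaving out fed replicate 1, and that of Mcm5 in 7 of 18, among them quantile normalization, scaling to the 75th percentile and leaving out fasted replicate 2, fed replicate 1 or fed replicate 3. Mcm3, the subunit with the smallest adjusted p of all 52 genes, read only 3.18, 3.41 and 3.05 in fasted beta cells, against 18.0, 7.11 and 8.94 in fed beta cells (log2 change -1.66, SE 0.38, adjusted p = 0.206 in limma). Its fasted readings lie at the floor, so the size of its change rests on the floor chosen, and it was -0.50 and no longer called when values were raised to 7.53. Gmnn, which encodes geminin, an inhibitor of relicensing, read 3.87, 7.96 and 6.85 in fasted beta cells, against 16.8, 13.1 and 13.4 in fed beta cells on its brighter probe set (log2 change -1.27, SE 0.38, adjusted p = 0.268 in limma). Its other probe set ran the opposite way, with 13.5, 12.8 and 11.2 in fasted beta cells, against 4.23, 6.57 and 3.14 in fed beta cells (log2 change 1.47, SE 0.34, adjusted p = 0.208 in limma), and was called higher. The mean of both gave a change of 0.10, so Gmnn has no settled direction. Cdt1, the licensing factor that geminin binds, read 10.1 to 23.1 on the fasted arrays and 18.3 to 21.9 on the fed arrays and was not called (log2 change -0.49, adjusted p = 0.549).

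Among the genes of DNA synthesis and nucleotide supply, 1 of 5 was lower, where 9.51% of all genes were. Top2a, topoisomerase II alpha, which untangles DNA in S phase and mitosis, read 13.1, 19.5 and 26.9 in fasted beta cells, against 69.9, 38.7 and 46.2 in fed beta cells. Its means were 19.8 ± 6.90 in fasted and 51.6 ± 16.3 in fed beta cells (SD, n = 3 each), the groups did not overlap (log2 change -1.40, SE 0.37, adjusted p = 0.234 in limma), and its call was lost in 1 of 18 alternatives, the comparison of linear means. Its other probe set was also lower, with 1.67, 1.00 and 21.5 in fasted beta cells, against 49.9, 16.2 and 47.9 in fed beta cells (log2 change -2.47, SE 0.89, adjusted p = 0.299 in limma). Rrm1, the large subunit of ribonucleotide reductase, read 11.7, 29.6 and 38.1 in fasted beta cells, against 67.0, 45.0 and 44.3 in fed beta cells, without overlap but with fasted replicate 1 far below the others (log2 change -1.11, SE 0.48, adjusted p = 0.346 in limma). Pcna, the sliding clamp of the replicative polymerases and a gene that many proliferation panels hold, was not called. It read 928, 899.5 and 879.5 in fasted beta cells, against 841, 930.2 and 802 in fed beta cells, and the interval of its change excludes a fall of 1.5-fold (95% confidence interval -0.12 to 0.27). Tyms and Tk1, enzymes of thymidylate supply, were dim, at 17.3 to 32.6 on the fasted and 17.2 to 28.9 on the fed arrays, and were not called (log2 changes -0.29 and 0.12).

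**Figure D3:**
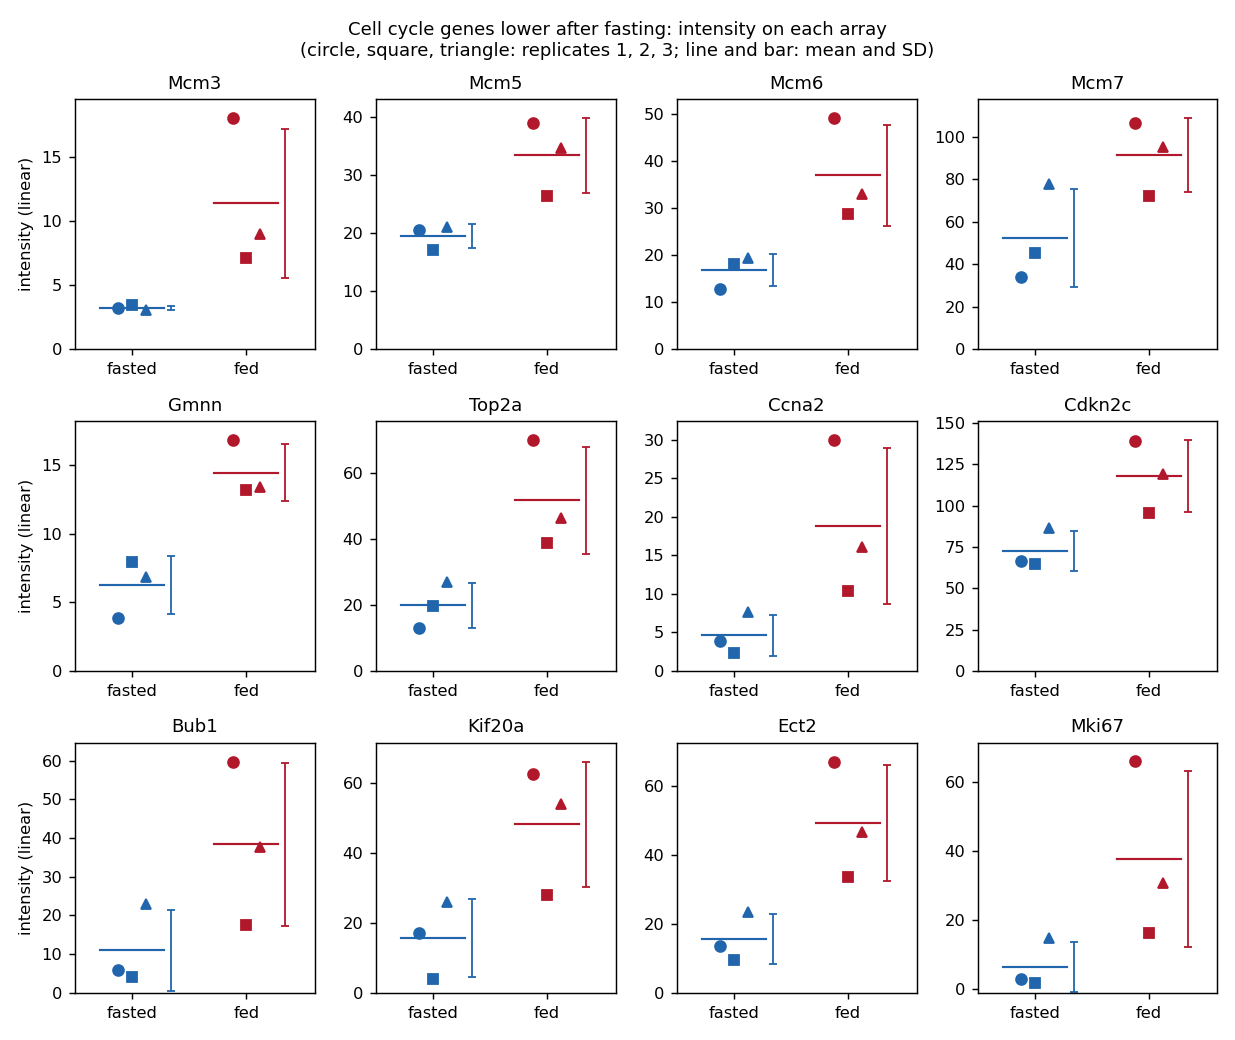
Intensity (vertical axis, linear, scale set for each gene) of the 12 genes that were lower, on the 3 fasted arrays (left in each panel) and the 3 fed arrays (right), with the mean and SD. Fed replicate 1 (red circle) is the highest reading in all 12 panels, and the groups overlap for Mcm7 and Bub1.

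The D cyclins and their kinases, which drive G1, were bright apart from Cdk6 and close to level. Of these 0 of 5 were called and the median change was -0.14, near the -0.20 of all probe sets. Ccnd2, the cyclin that mouse beta cells depend on, read 1233, 918 and 859.6 in fasted beta cells, against 1199, 1009.5 and 1068 in fed beta cells (log2 change -0.14, 95% confidence interval -0.51 to 0.23). Ccnd1 read 409, 526 and 527 in fasted beta cells, against 487, 525 and 521 in fed beta cells (log2 change -0.08, 95% confidence interval -0.37 to 0.21), and Ccnd3 read 55.5, 77.1 and 92.8 in fasted beta cells, against 89.4, 78.2 and 93.8 in fed beta cells (log2 change -0.24, 95% confidence interval -0.76 to 0.28). The intervals of Ccnd2 and of the brightest probe set of Ccnd1 exclude a 1.5-fold fall, and that of Ccnd3 does not. The other 2 probe sets of Ccnd1, with fed means of 290 and 255, do not exclude it either (95% confidence intervals -0.82 to 0.09 and -0.83 to 0.07), and on the dimmer of these every fasted array lay below every fed one. In the brightest probe sets the sign of all 3 turned positive after quantile normalization or scaling to the 75th percentile. Cdk4, their kinase, read 224, 247 and 266 in fasted beta cells, against 284, 272 and 319 in fed beta cells, with every fasted array below every fed one and a change of -0.25 (SE 0.11, adjusted p = 0.345 in limma). Cdk6, the alternative kinase, was near the floor, at 3.09 to 6.93 in fasted and 2.89 to 7.26 in fed beta cells.

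Of the CDK inhibitors, 1 of 5 was lower, where 9.51% of all genes were. Cdkn2c, which encodes p18INK4c, an inhibitor of CDK4 and CDK6, read 66.5, 64.4 and 86.4 in fasted beta cells, against 139, 95.3 and 119 in fed beta cells, averaging 72.4 ± 12.2 in fasted and 118 ± 21.9 in fed beta cells (SD, n = 3 each), without overlap (log2 change -0.70, SE 0.20, adjusted p = 0.254 in limma). Its call was lost after quantile normalization or scaling to the 75th percentile and without fed replicate 1. Its other probe set, much dimmer, read 26.1, 27.3 and 11.3 in fasted beta cells, against 9.05, 6.65 and 14.3 in fed beta cells and was not called (log2 change 1.07, adjusted p = 0.368), and the mean of both gave 0.19. Cdkn1a, which encodes p21, read 151, 129 and 161 in fasted beta cells, against 189, 179.7 and 202 in fed beta cells, also without overlap and with an unadjusted p under the threshold, but its change was smaller than 1.5-fold (log2 change -0.38, SE 0.12, adjusted p = 0.274 in limma). Cdkn1b, which encodes p27, read 347, 339 and 369 in fasted beta cells, against 413, 320.3 and 408 in fed beta cells and overlapped (log2 change -0.11, 95% confidence interval -0.40 to 0.19). Cdkn1c, which encodes p57, and Cdkn2a, the locus of p16INK4a, were dim. Cdkn1c lay at 3.91 to 10.7 in fasted and 1.66 to 4.92 in fed beta cells, and Cdkn2a at 9.45 to 14.4 in fasted and 6.26 to 18.2 in fed beta cells, and neither was called.

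Rb1, which encodes the retinoblastoma protein, read 128, 151 and 177 in fasted beta cells, against 161, 145 and 147 in fed beta cells (log2 change 0.00, 95% confidence interval -0.34 to 0.35). E2f1, a factor that this protein restrains, read 2.51, 65.2 and 95.0 in fasted beta cells, against 59.1, 66.2 and 109.7 in fed beta cells, and its change of -1.47 (SE 1.26, adjusted p = 0.568 in limma) rested on fasted replicate 1, which lay under the floor, and was 0.06 without it. Foxm1, a factor of mitotic genes, was dim, at 8.02 to 14.8 in fasted and 13.1 to 27.2 in fed beta cells, and was not called (log2 change -0.87, adjusted p = 0.379).

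**Figure D4:**
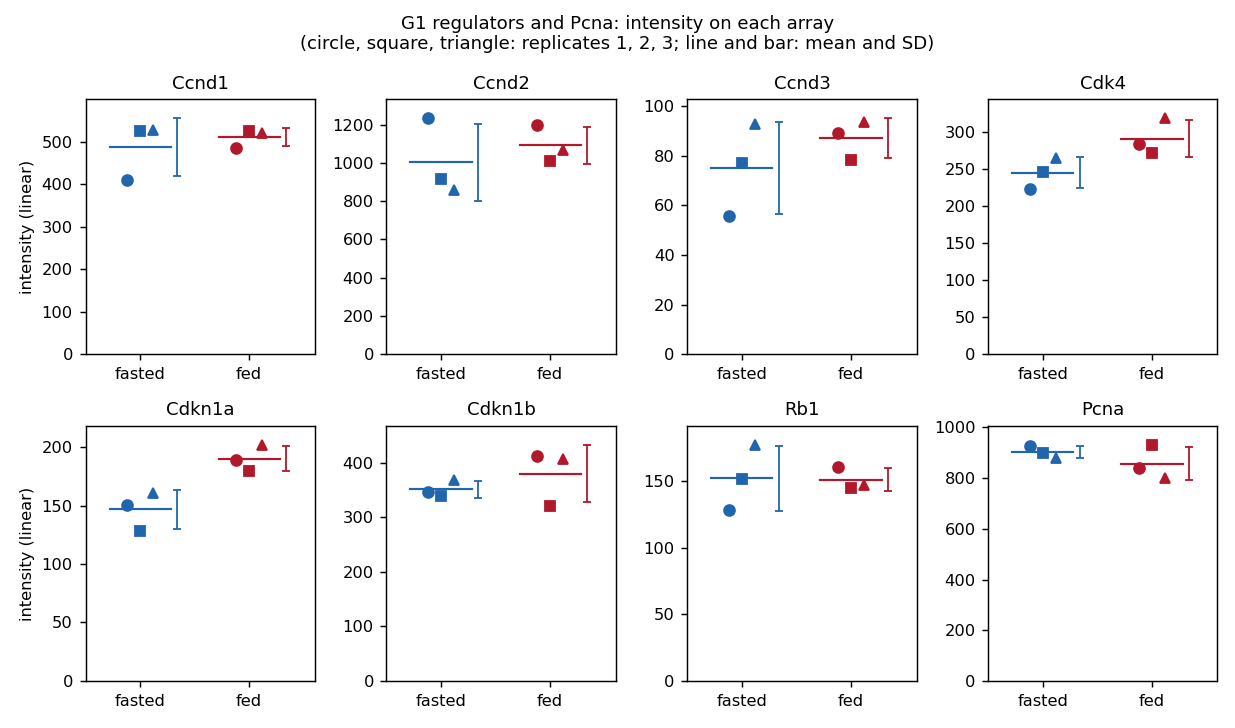
Intensity (vertical axis, linear, from 0, scale set for each gene) of 7 G1 regulators and Pcna on the 3 fasted arrays (left in each panel) and the 3 fed arrays (right), with the mean and SD. The groups overlap for Ccnd1, Ccnd2, Ccnd3, Cdkn1b, Rb1 and Pcna and lie apart for Cdk4 and Cdkn1a.

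Mki67, which encodes the Ki-67 antigen of dividing cells, had the largest negative change of the 52 genes. It read 3.10, 1.74 and 14.9 in fasted beta cells, against 65.8, 16.4 and 30.8 in fed beta cells, and the means were 6.58 ± 7.24 in fasted and 37.7 ± 25.4 in fed beta cells (SD, n = 3 each). The groups did not overlap, although fasted replicate 3 and fed replicate 2 lay close (log2 change -2.57, SE 0.80, adjusted p = 0.272 in limma). Since fasted replicates 1 and 2 lay under the floor, the fold is not fixed by the data, and the call was lost in 5 of 18 alternatives, among them leaving out fasted replicate 1, fasted replicate 2 or fed replicate 1, and both fasted replicate 1 and fed replicate 2.

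Of the later cyclins and their kinases, which act in S phase and mitosis, 1 of 7 was lower, where 9.51% of all genes were. Their median was -0.56, against -0.19 over all genes. Ccna2, cyclin A2 of S phase and G2, read 3.93, 2.35 and 7.60 in fasted beta cells, against 30.0, 10.4 and 16.0 in fed beta cells, without overlap (log2 change -1.89, SE 0.53, adjusted p = 0.253 in limma), and was lost in 1 of 17 alternatives, the comparison of linear means. Its reading on fasted replicate 2 lay under the floor. Ccnb2 and Cdk1, the cyclin B2 and the kinase that start mitosis, were the brighter members. Ccnb2 read 41.5, 17.4 and 40.0 in fasted beta cells, against 86.4, 24.0 and 52.7 in fed beta cells (log2 change -0.64, SE 0.57, adjusted p = 0.576), and Cdk1 read 49.6, 24.8 and 64.1 in fasted beta cells, against 89.5, 34.4 and 70.7 in fed beta cells (log2 change -0.49, SE 0.49, adjusted p = 0.616). In both genes replicate 2 was the lowest array of its group, which widened the spread. Cdk2, the partner of cyclins E and A, was dim but did not overlap, with 7.07, 10.2 and 11.9 in fasted beta cells, against 15.1, 14.1 and 13.8 in fed beta cells (log2 change -0.59, SE 0.34, adjusted p = 0.423 in limma). Ccnb1, Ccne1 and Ccne2 were dim too, with fed means of 33.5, 9.08 and 47.0 and changes of -0.47, 0.08 and -0.56, and were not called.

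Among the mitotic kinases and checkpoint genes 1 of 8 was lower and 4 of 8 changes were negative. Over all genes 9.51% were lower and 66.4% had a negative change. Bub1, a kinase of the spindle checkpoint, read 5.82, 4.08 and 23.1 in fasted beta cells, against 59.7, 17.6 and 37.8 in fed beta cells, with fasted replicate 3 above fed replicate 2 (log2 change -2.06, SE 0.78, adjusted p = 0.313 in limma). Its call was lost in 7 of 18 alternatives, among them leaving out any of fasted replicates 1 and 2 and fed replicates 1 and 3. Aurkb, the kinase of the chromosomal passenger complex and the only bright gene of this group, read 139.9, 34.2 and 79.6 in fasted beta cells, against 79.99, 23.3 and 91.8 in fed beta cells, a spread within each group larger than the difference between the group means (log2 change 0.38, SE 0.70, adjusted p = 0.794), and its sign turned without fasted replicate 1 (-0.09) or without fed replicate 2 (-0.24). The other 6 had fed means of 3.01 to 23.5. Of these, Ttk (-0.89), Bub1b (-0.97) and Cenpf (-1.16) had negative changes and Aurka (0.11), Plk1 (0.54) and Birc5 (0.68) positive ones, and their unadjusted p ran from 0.156 to 0.887. Of the genes of anaphase and protein destruction 0 of 3 were called. Cdc20 and Ube2c, an activator and the E2 enzyme of the anaphase-promoting complex, had changes of -0.64 and -0.76. Another probe set of Cdc20 read 50.6, 29.9 and 12.2 in fasted beta cells, against 8.87, 11.3 and 12.9 in fed beta cells. It was not called (log2 change 1.28, adjusted p = 0.352 in limma), and the remaining ones of Cdc20 had changes of -0.31, -0.46 and -0.55. Pttg1, which encodes securin, had a change of 1.15, set by a reading of 131 on fasted replicate 1. The other fasted arrays read 23.1 and 25.2 and the fed arrays 16.2, 11.3 and 38.3.

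On their brightest probe sets all 7 genes of the spindle and of cytokinesis had negative changes, where 66.4% of all genes did. Their median was -1.27, and 2 of the 7 were lower, where 9.51% of all genes were. Ect2, the exchange factor that turns on RhoA at the cleavage furrow, read 13.6, 9.48 and 23.6 in fasted beta cells, against 67.2, 33.8 and 46.9 in fed beta cells, averaging 15.5 ± 7.24 in fasted and 49.3 ± 16.8 in fed beta cells (SD, n = 3 each), without overlap (log2 change -1.71, SE 0.44, adjusted p = 0.226 in limma). Its call was lost in 1 of 18 alternatives, the comparison of linear means. Kif20a, a kinesin of the central spindle, read 17.1, 3.97 and 26.1 in fasted beta cells, against 62.5, 28.1 and 53.8 in fed beta cells (log2 change -1.91, SE 0.75, adjusted p = 0.322 in limma), and its call was lost in 9 of 18 alternatives, among them both normalizations and leaving out any array but fasted replicate 3. Its groups lay apart by little, fasted replicate 3 being just under fed replicate 2. Prc1, which bundles the microtubules of the central spindle, just missed the threshold, with 16.9, 15.2 and 39.5 in fasted beta cells, against 83.1, 29.9 and 57.4 in fed beta cells (log2 change -1.27, 95% confidence interval -2.54 to 0.00, adjusted p = 0.335 in limma). Racgap1, the partner of Ect2, read 26.5, 16.3 and 58.2 in fasted beta cells, against 112, 32.3 and 66.8 in fed beta cells (log2 change -1.09, SE 0.62, adjusted p = 0.424). In both, fed replicate 1 was the highest and fasted replicate 2 the lowest array. Nusap1, a spindle-associated protein, was bright and level on its brighter probe set, with 120.5, 102 and 110.0 in fasted beta cells, against 136, 96.1 and 119.6 in fed beta cells (log2 change -0.07, 95% confidence interval -0.46 to 0.32), but lower on its dimmer one, with 15.7, 19.2 and 35.9 in fasted beta cells, against 49.3, 36.2 and 44.1 in fed beta cells (log2 change -0.95, SE 0.36, adjusted p = 0.313 in limma). The kinesins Kif11 and Kif23 had fed means of 23.2 and 17.7 and changes of -1.53 and -1.22 and were not called. Their other probe sets, dimmer still, had changes of 0.28 and 0.15, and that of Racgap1 had -0.73, none of them called.

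The mitotic genes varied within each group in a shared pattern. Relative to the mean of the 6 arrays, the median log2 level of the 26 later cyclin and mitotic genes was -0.52, -0.91 and 0.11 in fasted replicates 1, 2 and 3, and 1.09, -0.25 and 0.54 in fed replicates 1, 2 and 3. Fasted replicate 3 thus stood above fed replicate 2. In these 26 genes fed replicate 1 was the highest fed array in 22 and fed replicate 2 the lowest in 23, and fasted replicate 3 was the highest fasted array in 19 and fasted replicate 2 the lowest in 18. Over all probe sets those arrays held these places in 35.9%, 35.0%, 51.8% and 29.0%. These genes and places were picked after their values were seen, so the counts are a description. The licensing genes had another order, with medians of -0.88, -0.44 and -0.11 in fasted replicates 1, 2 and 3 and 0.72, 0.19 and 0.45 in fed replicates 1, 2 and 3, so that their groups did not overlap. The 11 genes of the D cyclins, Cdk4, Cdk6, Rb1 and the inhibitors spanned only -0.23 to 0.16, and all probe sets -0.25 to 0.11. Fed replicate 2, the fed array with the lowest mitotic level, was also the one with the highest sums of alpha cell and of stellate and fibroblast markers. The part of these cells in its level was not tested. Without this array 18 of the 52 genes were lower, against 12 with it, while lower probe sets numbered 1997, against 2616.

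**Figure D5:**
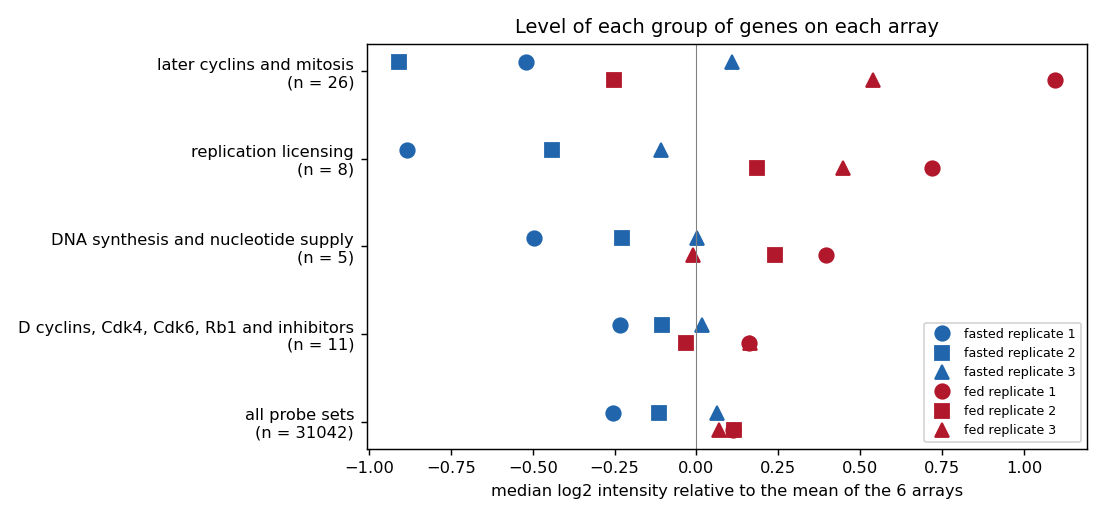
Median log2 intensity relative to the mean of the 6 arrays (horizontal axis) for 4 groups of the cell cycle genes and for all probe sets, 1 symbol per array, with fasted in blue and fed in red below it. Later cyclins and mitotic genes run from -0.91 on fasted replicate 2 to 1.09 on fed replicate 1, while in the row of all probe sets the symbols lie between -0.25 and 0.11 and those of fed replicates 1 and 2 fall on each other.

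In all, 17 genes of the list had further probe sets, 22 in number, mostly dim, with 2 at a fed mean over 50, both of Ccnd1. Over all probe sets 8.43% were lower, 2.37% were higher and 65.4% had a negative change. Of the 22 further ones, 2 were lower (Top2a and Nusap1), 1 was higher (Gmnn) and 13 had a negative change. For 1, of Foxm1, there was no change because all 6 arrays lay under the floor. Thus among the 12 lower genes the choice of the brighter probe set decides the direction of Gmnn and Cdkn2c. Both further probe sets of Ccnd1 had changes of -0.36 and -0.38, further below 0 than the brightest, and were not called.

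Other genes of the cycle, outside the list, were counted in the same way. Of 139 such genes 120 were measured, 27 were lower (22.5%, where 9.51% of all genes were) and 1 was higher (0.833%, where 2.29% were), with a median log2 change of -0.41. Of 54 genes with a fed mean over 50, 16 were lower (29.6%), where 12.8% of all genes as bright were, and of 66 dimmer ones 11 (16.7%), where 6.73% were. By list, 10 of 36 further replication genes, 8 of 36 G1 and S regulators, 7 of 34 mitotic genes and 2 of 14 subunits of the anaphase-promoting complex were lower. No gene passed the adjusted test, and 37 had an unadjusted p under 0.05. The smallest adjusted p in limma, 0.177, was that of Wee1, which ran upwards and was not called. Wee1 read 190, 207 and 190 in fasted beta cells, against 138, 147 and 129 in fed beta cells, a rise under 1.5-fold (log2 change 0.50). The count of lower genes was 9 without fed replicate 1, 14 without fasted replicate 1, and 15 after quantile normalization. All lower probe sets numbered 1448, 1690 and 1501 under these, against 2616 in the main fit.

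Among the further replication genes, Rpa3, a subunit of the protein that coats single-stranded DNA, read 35.5, 56.4 and 80.3 in fasted beta cells, against 145, 95.2 and 109 in fed beta cells (log2 change -1.08, adjusted p = 0.271 in limma), and Prim1, the catalytic subunit of primase, read 40.1, 65.4 and 63.5 in fasted beta cells, against 108, 76.2 and 94.0 in fed beta cells (log2 change -0.74). Orc6 and Dnmt1, of the origin complex and of DNA methylation, had changes of -0.99 and -1.02. In all 4 genes the groups did not overlap. Myc, a transcription factor of cell growth, read 34.04, 71.7 and 66.1 in fasted beta cells, against 113, 125 and 138 in fed beta cells (log2 change -1.20, SE 0.30, adjusted p = 0.223 in limma). Mdm2, the ligase of p53, read 75.6, 141 and 156 in fasted beta cells, against 193, 236 and 194 in fed beta cells (log2 change -0.80, adjusted p = 0.295 in limma), and Chek1, a kinase of the replication checkpoint, read 11.5, 20.1 and 19.4 in fasted beta cells, against 55.0, 32.7 and 40.6 in fed beta cells (log2 change -1.34). Lin37 and Lin52, subunits of the DREAM complex, were lower as well, with log2 changes of -1.01 and -0.72. Lin9 and Lin54, also subunits, were not called, with changes of -0.28 and -0.58. Mybl2, which encodes B-MYB, was dim and not called, with a change of 0.30 and every fasted array above every fed one. Smc4, a subunit of condensin, which folds mitotic chromosomes, read 13.5, 15.2 and 25.2 in fasted beta cells, against 70.6, 41.5 and 49.3 in fed beta cells (log2 change -1.60, SE 0.35, adjusted p = 0.198 in limma), and Smc2, its partner, had a change of -1.32. Dlgap5 and Zw10, of the spindle and the kinetochore, had -1.26 and -0.67, and Cdc16 and Anapc2, of the anaphase-promoting complex, -0.75 and -0.61. Incenp, of the chromosomal passenger complex, was the 1 higher gene, with 19.1, 42.3 and 23.1 in fasted beta cells, against 8.80, 7.10 and 9.13 in fed beta cells (log2 change 1.68, SE 0.40, adjusted p = 0.216 in limma), and is named because it stood alone. Of Ccng1, Ccng2 and Cdkn2b, regulators outside the core engine, none was called, with changes of -0.37, 0.02 and -0.23.

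Genes listed as regulators of beta cell growth, a list that also holds the cyclin genes Ccnl1 and Ccnl2, were mostly not called. Of 36 measured genes of 42, 2 were lower (5.56%, where 9.51% of all genes were) and 0 higher, with a median of -0.26 and 11 genes at an unadjusted p under 0.05. The smallest adjusted p in limma was that of Ccnl1 (0.176). Its change of -0.46 was under 1.5-fold, with every fasted array below every fed one. Prlr, the prolactin receptor, through which beta cells grow in pregnancy, read 482, 606 and 736 in fasted beta cells, against 997, 834 and 957 in fed beta cells (log2 change -0.63, SE 0.17, adjusted p = 0.234 in limma), and Tob1, an antiproliferative protein, read 291, 364 and 466 in fasted beta cells, against 539, 608 and 555 in fed beta cells (log2 change -0.63, SE 0.17, adjusted p = 0.252 in limma). Irs2, the adaptor of insulin and IGF signalling, had every fasted array below every fed one but less than 1.5-fold, with 264, 303 and 322 in fasted beta cells, against 446, 403 and 331 in fed beta cells (log2 change -0.40, adjusted p = 0.290 in limma). Btg1, an antiproliferative gene, read 3850.2, 2988 and 2834 in fasted beta cells, against 2866, 2779 and 2586 in fed beta cells (log2 change 0.22, 95% confidence interval -0.09 to 0.53). Men1, Foxo1 and Ezh2, a tumour suppressor, a factor restrained by insulin and a histone methyltransferase, had changes of -0.22, -0.19 and -0.05 and were not called. Btg2 was not analysed here, since no probe set carried its symbol alone.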

How the data were processed

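The authors purified beta cells by FACS, isolated RNA with TRIzol and hybridized 1 Affymetrix array for each of 3 fasted and 3 fed isolates. The deposited values are linear intensities, which the authors computed with dChip's model-based expression after normalization to the array of median intensity and with mismatch background correction. Detection calls were not used here, and for dChip the version is not given in the sources used here.

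After removal of 57 control probe sets, a floor at the 10th percentile (3.27) was set and log2 values were taken. The test of fasted minus fed ran over 31042 probe sets with limma 3.58.1 under R 4.3.3 (linear model, then eBayes with the intensity trend). It was two-sided, had no block, and its p-values were adjusted by Benjamini-Hochberg over all probe sets. The number of arrays limits the precision. Of the probe sets, 20826 carried 1 symbol in the platform annotation, 436 several and 9780 none. Only the first were named. Values on each array are given for all genes of the list with a fed mean over 50 and for the dimmer ones that were called or whose groups did not overlap, and the other dimmer genes are given by range or change. From the other lists the text names up to 4 called genes with the smallest p among those whose mean over the 6 arrays exceeded the median probe set (20.2), so that dimmer called genes can have a smaller p and not be named, and 11 genes set by name. Incenp, Wee1, Lin9, Lin54, Mybl2, Ccnl1 and Ccnl2 are named outside this rule. Genes outside the list are given by their brightest probe set only. The genes and lists were chosen with earlier results of these data known. Promoter windows are those of RefSeq on GRCr8, matched by symbol, and motifs were sought on both strands with Python 3.11.15. Figures were drawn with matplotlib 3.10.9.

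On data simulated for this comparison over 31042 probe sets, the fit found 36% of 100 probe sets changed 1.5-fold and 90% of 100 changed 3-fold at p under 0.05, and 5.58% of the unchanged ones. The simulated noise was independent between probe sets and held no shift of a whole array. These shares therefore do not give the error rate of the real arrays. As alternatives, each array was left out in turn, arrays were quantile-normalized or scaled by the 75th percentile, the floor was moved or replaced by a pseudocount, dim probe sets were dropped, and each gene was given the mean over its probe sets. The model was also run without the trend, with a robust variance, with array weights and with a block for the replicate number, and linear means were compared with unequal variances. Leaving out fasted replicate 1 and fed replicate 2 together, and counting the genes with a fed mean over 50 under each alternative, were chosen after seeing the data. Scan batches were not tested.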

Additional observations from a re-analysis of the deposited data

How the results depend on the processing

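The negative median of the 52 genes (-0.62) and of those with a fed mean over 50 (-0.38) kept its sign under all alternatives, though the second was -0.14 after scaling to the 75th percentile. The count of lower genes (12) was 2 with linear means and 28 with array weights, a fit that did not converge, and ran from 5 to 23 when 1 array was left out. The count of higher genes (0) was 2 with array weights and 0 to 1 when 1 array was left out. Of the 21 genes with a fed mean over 50, lower genes (3) numbered 1 with linear means, quantile normalization or scaling, 5 with dim probe sets left out, the pseudocount or robust variance, 9 with array weights, and 1 to 7 when 1 array was left out. The comparison of linear means uses each gene's own spread from 3 arrays a group. For the other shifts the cause was not tested.

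Over all probe sets, 2616 were lower, against 1625 with linear means, 1501 after quantile normalization, 1329 after scaling, 6956 with array weights, 1637 without both fasted replicate 1 and fed replicate 2, and 1448 to 5562 when 1 array was left out. Higher probe sets numbered 737, against 269, 1275, 1430 and 2469 under the first 4 of these, 379 with dim probe sets left out, 419 with the floor at the 25th percentile, and 472 to 1536 when 1 array was left out. Of the other cell cycle genes 27 were lower, against 15 after quantile normalization, scaling or without both arrays, 50 with array weights, and 9 to 40 when 1 array was left out. The 1 higher gene among them became 0 with linear means, dim probe sets left out or the mean of all probe sets, 3 after quantile normalization or scaling, 6 with array weights, 2 without both arrays, and 1 to 2 when 1 array was left out. Array weights called 9973 probe sets at an adjusted p under 0.05, 22 of them on the list, and the other fits called 0 to 124 and 0.

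Log2 changes that turned their sign were those of Aurkb (-0.79 with array weights, -0.72 without both arrays, -0.24 to 0.93 when 1 array was left out), Ccnd1 (0.0492 after quantile normalization, 0.17 after scaling, 0.0404 with array weights, 0.0446 without fasted replicate 1, 0.0643 without both arrays), Ccnd2 (0.000416 and 0.11 after quantile normalization and scaling), Ccnd3 (0.00112 and 0.00335 after these), Cdkn1b (0.0135 and 0.14 after these, 0.28 as the mean of its probe sets) and Nusap1 (0.13 and 0.17 after these, -0.27 without both arrays, 0.0442 without fed replicate 1). Cdkn2c became 0.19 and Gmnn 0.10 as the mean of their probe sets, E2f1 ran from -2.37 to 0.0610 and Rb1, at 0.00, from -0.11 to 0.12 when 1 array was left out.

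The groups share replicate numbers, but over all probe sets the deviations of same-numbered arrays were uncorrelated (r = 0.00, 0.01 and -0.05). A correlation over all probe sets cannot exclude a pairing that touches few genes. Of the 26 later cyclin and mitotic genes, replicate 2 was the lowest fed array in 23 and the lowest fasted array in 18. The highest array was fed replicate 1 in 22 but fasted replicate 3 in 19. With the replicate number as a block, 12 genes of the list were lower and 0 higher, 4 of those with a fed mean over 50, 18 and 2 of the other cell cycle genes, and 2046 and 644 probe sets. Mcm5 was no longer called with the block, and Prc1 was.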
